A study of Mus musculus with 15 samples.

Results

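Tenascin C, fibronectin, the fibulins, fibrillin 1, elastin, thrombospondins and periostin are matrix proteins that link cells to the collagen scaffold or make the matrix elastic. The set described here was named gene by gene as Tnc, Fn1, Fbln1, Fbln2, Fbln5, Fbn1, Eln, Thbs1, Thbs2 and Postn, 10 genes in all. Their RNA was followed in MC3T3 cells, a mouse calvarial line that forms bone-like matrix in culture, here clone 1b, measured as total RNA on single-colour oligonucleotide arrays. A gene entered through every probe set whose only symbol in the platform annotation was its own. That gave 12 probe sets for 7 genes, of the 8251 genes named on the array in this way. No probe set carried Fbln5 or Fbn1 as its only symbol, and Thbs1 appeared only on a probe set that also carried Pald1, so those 3 genes have no value of their own here.

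There were 15 arrays in 5 groups of 3. Control medium was sampled at day 0. Cultures given beta-glycerol phosphate (GP), a phosphate source for mineral, were sampled at days 1 and 3, and so were cultures given GP together with ascorbic acid, a cofactor of collagen hydroxylation, and bone morphogenetic protein 2 (BMP-2), a bone-inducing growth factor. The last are called treated below. Because no culture received ascorbic acid or BMP-2 alone, the effects of these agents cannot be told apart, and between day 0 and GP day 1 medium and time changed together. Each group held a preparation 1, 2 and 3. The labels do not say whether these were separate cultures. The p-values then measure only how far these samples spread, and that spread may be technical. As a model, all groups share a single clone of a single line.

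Adhesive matrix glycoproteins act on cells mainly through integrins and syndecans. Fibronectin is the ubiquitous adhesive ligand and is assembled into fibrils at the cell surface. Tenascin C, thrombospondin 2 and periostin are matricellular proteins, which adjust adhesion and collagen fibril assembly more than they bear load. Elastic fibres are built from elastin laid on fibrillin microfibrils, with fibulins bridging elastin, microfibrils and basement membrane. In bone, periostin marks the periosteum and periodontal ligament, and tenascin C is found around condensing and newly forming bone.

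The deposited values were array intensities. Each array had a mean of 149.1 to 150 between its 2nd and 98th percentiles, so the arrays had been brought to a common scale. Of 12422 probe sets other than controls, 7453 passed a filter on mean signal and were tested, among them 9 of the 12 probe sets, which covered all 7 genes. The preparation 3 arrays had more values at the floor of 2.8 units (11.7% to 13.9%) than those of preparation 1 (7.67% to 9.72%) or 2 (6.97% to 8.54%). The GP day 3 array of preparation 3 read 2.11 times as much signal from the 3′ as from the 5′ actin probes, a measure of RNA integrity, against ratios of 1 to 1.34 on the other 14. The number of arrays limits the precision.

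The main result is a pair of opposite changes. After 3 days Tnc was 5.11-fold higher in treated than in GP cultures and Fbln2 3.07-fold lower. These were the 2 genes of the 7 that passed the test without the preparation number in the fit. Thbs2 was lower in treated cultures at both days in every preparation. It passed only when the preparation number entered the fit as a block, called matching below. Tnc, Fbln2 and Thbs2 all passed at both days with matching. At day 1, leaving out any 1 array lost at least 1 of these matched calls. Fn1, Fbln1, Eln and Postn did not pass in any comparison between treated and GP cultures. In RNA from a whole culture, fewer cells of a type and less RNA per cell cannot be told apart.

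**Figure D1:**
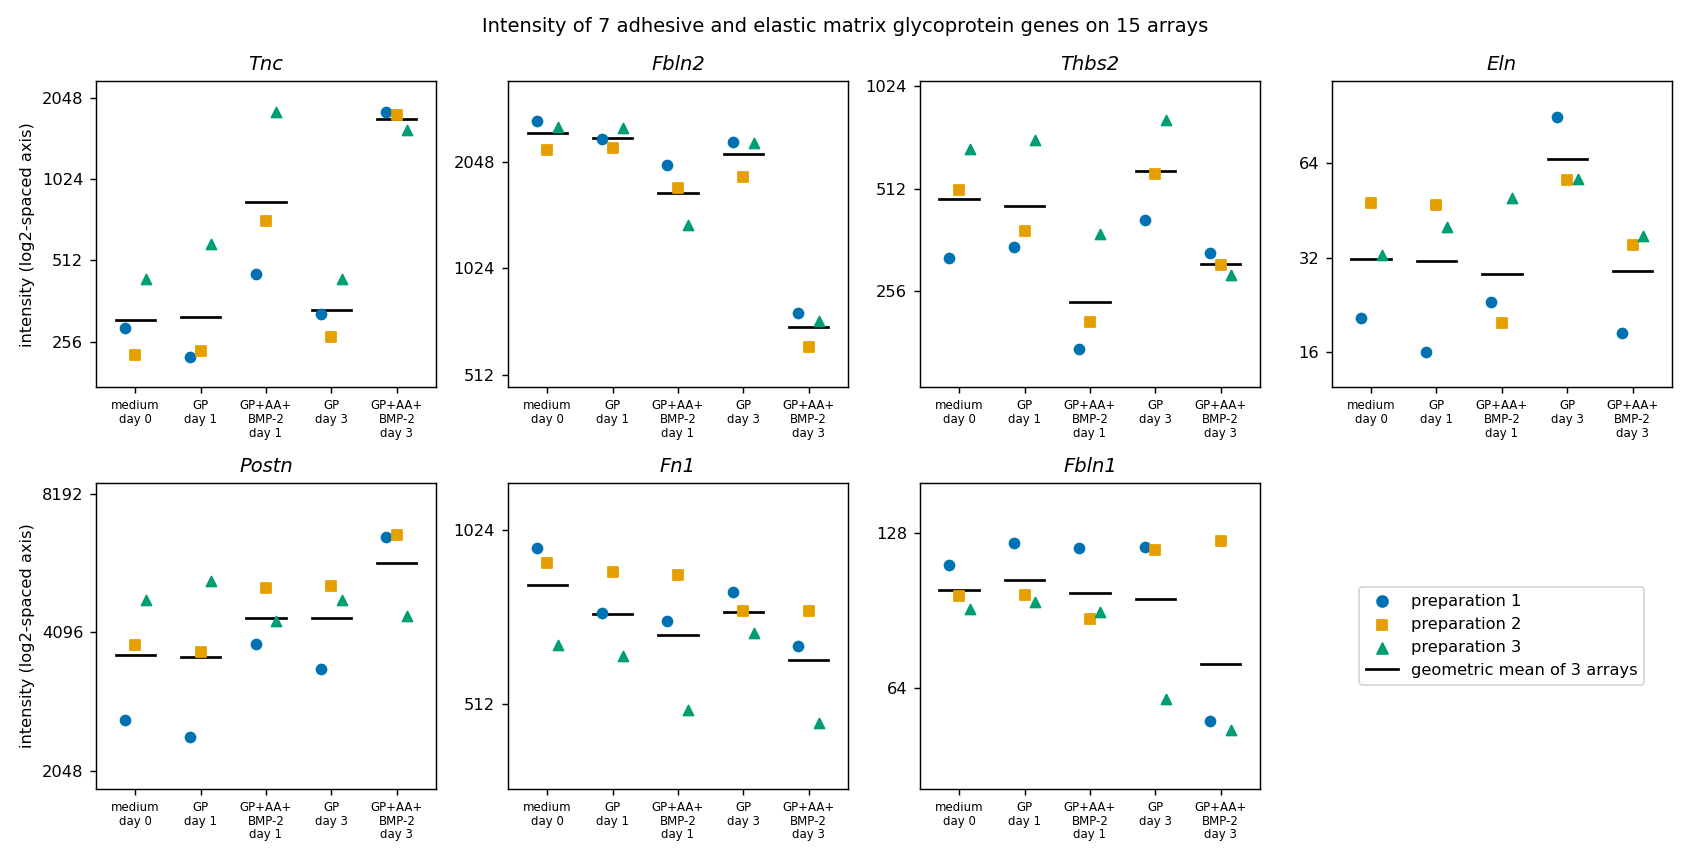
Intensity of the 7 genes on the 15 arrays, on a log2-spaced axis, with the groups along the horizontal axis (GP+AA+BMP-2 is the treated group), a symbol for each preparation and a bar for the geometric mean of 3 arrays. Tnc at day 3 lies at 1561.9 to 1814 in treated cultures and 266.6 to 437.2 in GP cultures, while Fbln2 lies at 615.1 to 764.5 against 1848.8 to 2327.1.

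The sequences just before the start sites of the 3 genes with a call in any treatment comparison are shown, since those genes moved in opposite directions. Each is the 250 bases before a RefSeq start site in GRCm38.p6, read 5′ to 3′ along the gene's strand and ending at the base before the start. Tnc (gene ID 21923) spans chr4:63959785-64047015, and its window is chr4:64047016-64047265 on the minus strand. Fbln2 (gene ID 14115) spans chr6:91212460-91272540, and its window is chr6:91212514-91212763 on the plus strand, which lies inside that span because the start site used is not the outermost base of the gene. Thbs2 (gene ID 21826) spans chr17:14665500-14694262, and its window is chr17:14694263-14694512 on the minus strand. Capitals mark matches, on either strand, to the Smad half-site GTCTG, the TATA element TATAAA or the Sp1 box GGGCGG.
Tnc: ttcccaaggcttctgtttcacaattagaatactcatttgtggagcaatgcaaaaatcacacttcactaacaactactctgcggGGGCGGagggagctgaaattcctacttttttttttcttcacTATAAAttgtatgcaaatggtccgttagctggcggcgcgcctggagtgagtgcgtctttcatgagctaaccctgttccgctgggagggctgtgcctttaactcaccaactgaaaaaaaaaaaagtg
Fbln2: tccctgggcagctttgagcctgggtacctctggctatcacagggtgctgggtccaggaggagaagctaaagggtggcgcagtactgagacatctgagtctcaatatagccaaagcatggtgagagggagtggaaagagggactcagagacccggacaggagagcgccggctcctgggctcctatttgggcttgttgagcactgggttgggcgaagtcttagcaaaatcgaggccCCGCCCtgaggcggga
Thbs2: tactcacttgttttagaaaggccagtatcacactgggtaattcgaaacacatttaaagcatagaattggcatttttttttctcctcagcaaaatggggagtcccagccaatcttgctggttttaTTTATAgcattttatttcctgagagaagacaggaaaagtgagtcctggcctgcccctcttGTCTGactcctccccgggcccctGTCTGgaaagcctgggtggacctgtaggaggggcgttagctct
The Tnc window holds an Sp1 box at -167 and a TATA element at -126, counted in bases from the start site. RefSeq lists a second Tnc start site, whose window, chr4:64046937-64047186, overlaps the one shown and also holds a Smad half-site at -70. The Fbln2 window holds an Sp1 box at -16, on the opposite strand. The Thbs2 window holds Smad half-sites at -66 and -43 and a TATA element at -126 on the opposite strand. Across 32851 windows of the same length in the RefSeq table, 42.2% hold GTCTG, 12.4% TATAAA and 32.7% GGGCGG. None of the 3 windows shown holds the GC-rich Smad element GGCGCC (9.59% of all windows) or the AP-1 element TGANTCA (6.75%), and each holds at least 1 E-box, CANNTG (66.2%), which is not capitalised. The capitalised matches do not overlap. A match is a description of letters, not a binding site.

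Tnc encodes tenascin C, a hexameric matricellular glycoprotein of developing and repairing connective tissue. On its brighter probe set (101993_at) the medium arrays read 287.5, 229.1 and 437.2 intensity units in preparations 1, 2 and 3. GP cultures read 225, 236.2 and 589.4 at day 1 and 323.3, 266.6 and 437.2 at day 3. Treated cultures read 457.3, 718.7 and 1819.4 at day 1 and 1814, 1771.5 and 1561.9 at day 3. At day 1 the groups overlapped, because preparation 3 was high in both. At day 3 every treated array lay above every GP array, at 1716 ± 135 against 342 ± 86.9 (SD, n = 3).

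The day 3 difference was 2.35 ± 0.45 on the log2 scale (SE), a 5.11-fold increase, with an adjusted p of 0.0105 in limma with Benjamini-Hochberg adjustment over all tested probe sets and a 95% interval of 1.39 to 3.32. At day 1 it was 1.42 ± 0.45, a 2.67-fold difference that did not pass (limma with Benjamini-Hochberg, adjusted p = 0.192). The increase at day 1 passed with preparations matched (adjusted p = 0.018). Within preparations 1, 2 and 3 the day 1 differences were 1.02, 1.61 and 1.63, all upward. Those at day 3 were 2.49, 2.73 and 1.84, again all upward. Averaged over the 5 groups, Tnc in preparation 3 stood 0.56 above its group means in log2, where preparations 1 and 2 stood at -0.29 and -0.27.

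The second Tnc probe set (162362_f_at, a suffix the manufacturer gives where probes can match a gene family) was dimmer but moved alike. Its treated arrays read 76.5, 97.6 and 204.3 at day 1 and 214.7, 273.6 and 134 at day 3. GP arrays read 40.6, 43.3 and 74.1 at day 1 and 70.8, 48.9 and 71.6 at day 3. Here the groups did not overlap at either day. Its log2 differences were 1.18 ± 0.38 at day 1 and 1.66 ± 0.38 at day 3, with limma adjusted p-values (Benjamini-Hochberg) of 0.197 and 0.0263. Across the 15 arrays the log2 values of the probe sets had a Pearson r of 0.97, a description over arrays that share groups and preparations.

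Without matching, the Tnc call at day 3 held in 5 of 6 fits that left out 1 array of the comparison. Without the GP day 3 array of preparation 2 the difference was 2.19 and the limma adjusted p (Benjamini-Hochberg) 0.0525. Without the GP array of preparation 3, whose actin ratio stood apart, it was 2.54 with an adjusted p of 0.0149. Leaving out all 5 arrays of preparation 1 or 2 gave adjusted p-values of 0.189 and 0.309 at differences of 2.28 and 2.16. With preparations matched, the call held in all 6 fits without 1 array (limma adjusted p, Benjamini-Hochberg, 5.47e-05 to 0.00384).

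Fbln2 encodes fibulin 2, an adaptor that binds fibronectin, elastin, fibrillin and basement membrane proteins. Medium arrays read 2657.7, 2207.4 and 2558.7 in preparations 1, 2 and 3, and GP arrays 2367.7, 2242.6 and 2551.7 at day 1 and 2327.1, 1848.8 and 2309.1 at day 3. Treated arrays read 2000.9, 1723.7 and 1353.3 at day 1 and 764.5, 615.1 and 727 at day 3. The treated arrays lay below all GP arrays at both days, and the 9 arrays without treatment stayed within 1848.8 to 2657.7. The means of treated cultures were 1693 ± 325 at day 1 and 702 ± 77.7 at day 3 (SD, n = 3), against 2387 ± 156 and 2162 ± 271 in GP cultures.

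At day 3 Fbln2 fell by 1.62 ± 0.16 on the log2 scale, which is 3.07-fold lower (95% interval -1.95 to -1.29), with a limma adjusted p (Benjamini-Hochberg) of 0.000206. It had the second-smallest p of the 7453 tested probe sets in that comparison. The within-preparation differences were -1.61, -1.59 and -1.67, an SD of 0.04, the closest agreement among the 7 genes at day 3. At day 1 the difference was -0.51 ± 0.16, which did not pass (limma with Benjamini-Hochberg, adjusted p = 0.167). With preparations matched it passed, at an adjusted p of 0.0293. The within-preparation differences at day 1 were -0.24, -0.38 and -0.91, all downward.

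The day 3 call of Fbln2 held in all 6 fits without 1 array, both unmatched and with preparations matched. In the unmatched fit it was lost without all 5 arrays of preparation 2, at a difference of -1.64 and a limma adjusted p (Benjamini-Hochberg) of 0.0633. Between days 1 and 3 in treated cultures Fbln2 fell by 1.26 ± 0.16, again with no overlap between the groups. Its limma adjusted p (Benjamini-Hochberg) was 0.00939, the smallest of all probe sets tested, where 0.148% of probe sets passed. In GP cultures over the same days it differed by -0.15 ± 0.16. The treated day 3 against day 1 call was lost without the treated day 3 array of preparation 2 (0.0991) or 3 (0.0521), without the treated day 1 array of preparation 1 (0.0717) or 2 (0.0909), and in a fit of those 2 groups alone (0.111). It was also lost without all 5 arrays of preparation 1 (0.268) or 2 (0.898).

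Whether the treatment effect itself changed between the days was tested as a difference of differences. For Fbln2 it was -1.11 ± 0.22 on the log2 scale (95% interval -1.58 to -0.64), with a limma adjusted p (Benjamini-Hochberg) of 0.634, or 0.0745 with preparations matched. For Tnc it was 0.93 ± 0.64 and for Thbs2 0.03 ± 0.50. None of the 7 genes passed, and neither did any of the 7453 probe sets with or without matching in limma. At an unadjusted p under 0.05 there were 270 probe sets (3.62%), with Fbln2 the only 1 of the 7 genes among them. The Fbln2 and Tnc effects are therefore not shown to differ between day 1 and day 3.

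Thbs2 encodes thrombospondin 2, a matricellular inhibitor of angiogenesis that also affects collagen fibril shape. GP arrays read 346.8, 384.8 and 712.7 in preparations 1, 2 and 3 at day 1 and 416, 566.3 and 817.2 at day 3. Treated arrays read 173.9, 207.8 and 376.8 at day 1 and 332.6, 306.4 and 286.9 at day 3. Medium arrays read 320.8, 509.5 and 669.8. Preparation 3 was highest in every group except treated day 3, where the 3 arrays lay close together and below all GP arrays. At day 1 the groups overlapped, since treated preparation 3 exceeded GP preparation 1.

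Within preparations 1, 2 and 3 the Thbs2 differences at day 1 were -1, -0.89 and -0.92, an SD of 0.06. At day 3 they were -0.32, -0.89 and -1.51. The unmatched fit gave -0.93 ± 0.35 at day 1 and -0.91 ± 0.35 at day 3, with limma adjusted p-values (Benjamini-Hochberg) of 0.301 and 0.186. With preparations matched the standard error fell to 0.21 and the adjusted p-values were 0.0245 and 0.0128. The matched call at day 3 was lost without the GP day 3 array of preparation 2 (adjusted p = 0.0551).

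The number of matched calls at day 1 fell whichever array was left out. Of Tnc, Fbln2 and Thbs2, the matched fit called 2 without the treated array of preparation 1 and 1 without that of preparation 2 or 3. It called 1 without the GP array of preparation 1 or 3 and 0 without that of preparation 2. The matched limma adjusted p-values (Benjamini-Hochberg) in those fits ran from 0.00593 to 0.1 for Tnc, from 0.0351 to 0.135 for Fbln2 and from 0.0335 to 0.113 for Thbs2.

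**Figure D2:**
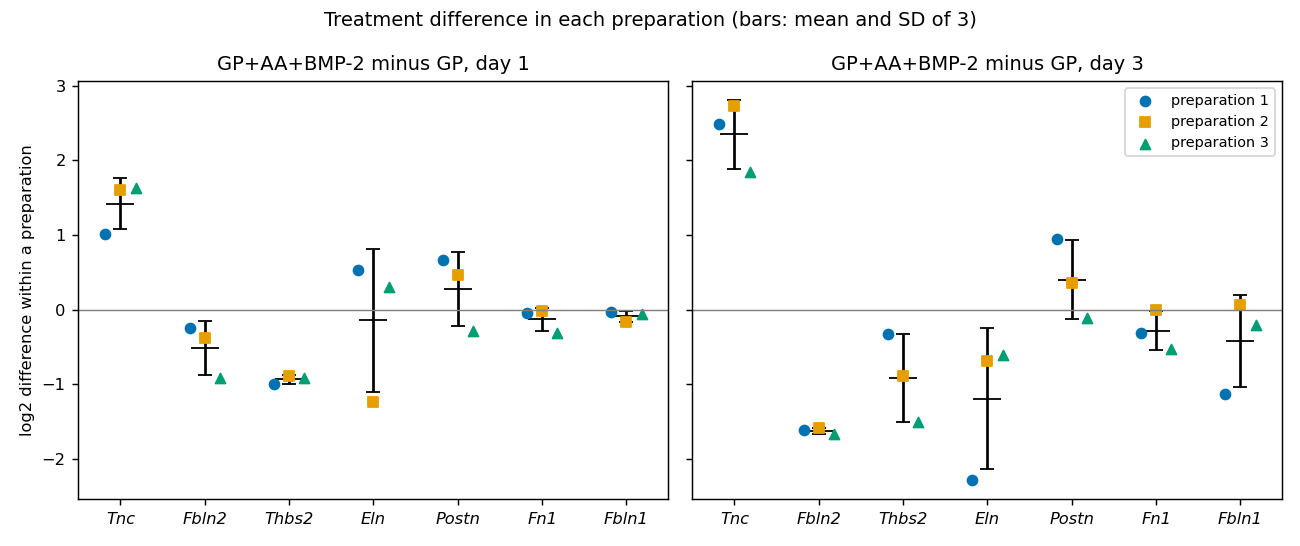
Treated minus GP difference in log2 intensity within each preparation for the 7 genes at day 1 and day 3, with bars for the mean and SD of 3 preparations. Tnc is above 0 and Fbln2 and Thbs2 below 0 in all 3 preparations at both days, and the Fbln2 differences at day 3 lie between -1.67 and -1.59.

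Eln encodes tropoelastin, the core of the elastic fibre. It was dim: its brighter probe set (92836_at) read 16.1 to 89.6, and 4 of the 15 arrays were under the 22.3 units used as the filter on mean signal. GP arrays read 16.1, 46.9 and 40 in preparations 1, 2 and 3 at day 1 and 89.6, 56.4 and 56.8 at day 3, so the day 3 GP arrays lay above all others of the 15. Treated arrays read 23.2, 19.9 and 49.4 at day 1 and 18.4, 35 and 37.6 at day 3. The treated minus GP difference at day 3 was -1.19 ± 0.49 (95% interval -2.23 to -0.14), without overlap, and did not pass (limma with Benjamini-Hochberg, adjusted p = 0.214, or 0.0859 with preparations matched).

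Preparation 1 carried most of that Eln difference. Within preparations 1, 2 and 3 it was -2.28, -0.69 and -0.60. Between GP day 1 and GP day 3 the same preparation gave 2.48 where the others gave 0.27 and 0.51. Without all arrays of preparation 1 the treated minus GP difference at day 3 was -0.64. At day 1 it was -0.14 ± 0.49 with an interval of -1.18 to 0.91, which includes the day 1 values of Fbln2 and Thbs2. The second Eln probe set (92207_at) read 1.5 to 17.2 and was not tested.

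Postn encodes periostin, a matricellular protein that binds collagen, fibronectin and tenascin C. Its medium arrays read 2641.6, 3847.7 and 4808.8 in preparations 1, 2 and 3. GP arrays read 2437, 3713.6 and 5294.4 at day 1 and 3411, 5171 and 4810.2 at day 3. Treated arrays read 3862.9, 5120 and 4331.7 at day 1 and 6594.6, 6653.1 and 4444.5 at day 3. Preparations 1 and 2 were higher with treatment at both days (0.66 and 0.46 at day 1, 0.95 and 0.36 at day 3), and preparation 3 was lower at both (-0.29 and -0.11). The differences of 0.28 ± 0.28 and 0.40 ± 0.28 did not pass (limma with Benjamini-Hochberg, adjusted p = 0.852 and 0.541). Their 95% intervals were -0.33 to 0.88 and -0.21 to 1.01.

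Fn1 encodes fibronectin. Its arrays lay between 473 and 952 in all 5 groups. GP arrays read 734.6, 867.2 and 619.8 at day 1 and 800.6, 740.5 and 679 at day 3, and treated arrays 713, 854.9 and 498.3 at day 1 and 645.4, 740.8 and 473 at day 3. Groups overlapped at both days. The differences were -0.13 ± 0.22 and -0.28 ± 0.22, with limma adjusted p-values (Benjamini-Hochberg) of 0.941 and 0.604. The intervals, -0.61 to 0.35 at day 1 and -0.76 to 0.20 at day 3, do not reach a change as large as that of Fbln2 at day 3.

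Fbln1 encodes fibulin 1, a binding partner of fibronectin and elastin. On its brighter probe set (94308_at) GP arrays read 122.6, 97.2 and 94 at day 1 and 120.4, 118.6 and 61 at day 3. Treated arrays read 119.8, 87.1 and 89.9 at day 1 and 55.2, 123.3 and 53 at day 3. Preparation 2 did not share the lower treated values of day 3. The differences were -0.09 ± 0.32 and -0.42 ± 0.32 (limma with Benjamini-Hochberg, adjusted p = 0.983 and 0.579), with a day 3 interval of -1.12 to 0.27. The other tested probe set (94309_g_at) gave 0.08 ± 0.25 and -0.25 ± 0.25. The untested ones, 94307_at and 161628_r_at, read 2.4 to 22.2 and 2.2 to 7.3.

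Counted over the 7 genes, at day 1 none passed, against 0.926% of all probe sets tested, and 3 passed with preparations matched, against 4.99%. At an unadjusted p under 0.05 the count was 3 at day 1, against 11.3%. At day 3, 2 passed, against 4.11%, and 4 had an unadjusted p under 0.05, against 16.7%. Of the 2, 1 rose and 1 fell, against 2.03% of probe sets that rose and 2.08% that fell, and with preparations matched 3 passed, against 13.8%. The median log2 difference of the 7 genes was -0.13 at day 1 and -0.42 at day 3, where the median of all tested genes was 0 at both days. The comparisons of Tnc, Fbln2 and Thbs2 at the same day share their control arrays with those of the other genes, and with 7 genes chosen by name these shares are a description. The genes were chosen with earlier results of these data known, the Tnc and Fbln2 changes at day 3 among them. A count above the share of all probe sets is therefore no evidence about the set.

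Groups did not overlap for 1 of the 7 genes at day 1 (Fbln2), against 17.1% of probe sets. At day 3 they did not overlap for 4 (Tnc, Fbln2, Thbs2 and Eln), against 20.1%. All 3 preparations moved the same way for 5 of 7 genes at day 1 (Tnc upward, and Fbln2, Thbs2, Fn1 and Fbln1 downward), against 44.5%. They did so for 4 of 7 at day 3 (Tnc upward, and Fbln2, Thbs2 and Eln downward), against 45.5%.

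Without ascorbic acid and BMP-2 none of the 7 genes passed between sampling days. From medium at day 0 to GP at day 1 the count was 0, against 0.242% of probe sets, and the differences ran from -0.16 ± 0.22 for Fn1 to 0.07 ± 0.32 for Fbln1. From GP day 1 to GP day 3 it was also 0, against 0.711%. The largest of those differences was 1.08 ± 0.49 for Eln, with no overlap between the groups and a limma adjusted p (Benjamini-Hochberg) of 0.742. Without overlap were 11.4% of all probe sets in that step. At an unadjusted p under 0.05, the counts were 0 (against 3.46% of probe sets) and 1, Eln (against 6.43%). In treated cultures from day 1 to day 3 Fbln2 was the only 1 of the 7 that passed. Fbln2 and Tnc had an unadjusted p under 0.05 there, 2 genes, against 8.29% of probe sets, and Fbln2 alone did not overlap, against 12.2%.

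Tnc in treated cultures gave 1.02 ± 0.45 between days 1 and 3, which did not pass (limma with Benjamini-Hochberg, adjusted p = 0.57). Preparations 1 and 2 were at 1.99 and 1.3 and preparation 3, already at 1819.4 on day 1, was at -0.22. Without all arrays of preparation 3 the difference was 1.64 and the limma adjusted p (Benjamini-Hochberg) 0.00865. Likewise Tnc at day 1 gave 1.31 against GP without those arrays, with an adjusted p of 0.016. Among the unmatched fits with arrays left out, these were the only calls of Tnc in either comparison. It was not called in any of the 6 fits without 1 array, nor without all arrays of preparation 1 or 2. The dimmer Tnc probe set showed the same order within preparations, with 1.49, 1.49 and -0.61 between treated day 1 and day 3.

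Patterns over the 15 arrays were compared by Pearson r of log2 values, with arrays that share groups and preparations, so r has no p here. Tnc was most like Dlx5, a homeobox transcription factor of bone (r = 0.935), Pkdcc, a secreted kinase of skeletal development (0.925), and Nop58, a nucleolar protein (0.925). At day 3 these were at 0.84, 1.79 and 0.53 against GP, and of them Pkdcc passed (limma with Benjamini-Hochberg, adjusted p = 0.0327). The Pkdcc call held in 1 of 6 fits without 1 array, that without the GP array of preparation 3, and the adjusted p was 0.0544 to 0.14 in the other 5. Dlx5 passed at both days with preparations matched (adjusted p = 0.025 and 0.014), and Nop58 did so at day 3 (0.0077). Fbln2 was most like Ackr3, a scavenging chemokine receptor (r = 0.973), Tmem179b (0.944) and Cd34, a sialomucin of progenitor and vascular cells (0.911). At day 3 those 3 fell, with log2 differences of -2.38, -0.66 and -1.93 and limma adjusted p-values (Benjamini-Hochberg) of 0.00128, 0.0255 and 0.00117. The Ackr3 and Cd34 calls held in all 6 fits without 1 array and were lost without all arrays of preparation 2 (0.168 for each). Ackr3 also passed at day 1 with preparations matched, at -0.86 and a limma adjusted p (Benjamini-Hochberg) of 0.0328. Cd34 passed at day 1 without matching, at -1.2 and a limma adjusted p (Benjamini-Hochberg) of 0.0401. That day 1 call held in only 1 of 6 fits without 1 array and was lost without all arrays of preparation 1 (0.275) or 2 (0.84). Of the fits without 1 array, the Tmem179b call held only without the treated array of preparation 1 or the GP array of preparation 2, with adjusted p-values of 0.0501 to 0.106 in the other 4 fits. Among the 7 genes, each by its brightest probe set, the pairs with an r beyond 0.5 in size were Tnc with Fbln2 (-0.85), Tnc with Fn1 (-0.68), Tnc with Postn (0.66), Fbln2 with Postn (-0.6), Eln with Thbs2 (0.55) and Fn1 with Fbln1 (0.53).

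Partner genes of the pathway were read from 3 lists. Of 31 names of elastic fibre and microfibril partners, such as latent TGF-beta binding proteins, lysyl oxidases and emilins, 14 were tested. None passed at day 1 or day 3, against 0.926% and 4.11% of all probe sets, and the median log2 differences were 0.17 and -0.05. With preparations matched Tgfbi, an adhesive protein that binds collagen and integrins, passed at both days, at 1.43 and 0.93, and Ltbp4, a latent TGF-beta binding protein of elastic fibres, passed at day 3, at -0.58. Their limma adjusted p-values (Benjamini-Hochberg) were then 0.00142, 0.00767 and 0.0211, against 0.599, 0.658 and 0.282 without matching. These matched counts, 1 of 14 at day 1 and 2 of 14 at day 3, stand beside 4.99% and 13.8% of all probe sets. The other genes with the smallest p were Glb1 (-0.33), Pcolce (-0.34) and Lox (0.38) at day 1 and Lox (0.33) and Fbn2 (0.93) at day 3, none of which passed in either fit.

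Of 40 names of other adhesive and matricellular glycoproteins 19 were tested, with medians of 0.03 at day 1 and 0.16 at day 3. None passed at day 1, against 0.926% of all probe sets. At day 3 Ccn2, connective tissue growth factor, rose by 3.09 ± 0.64, and Nid2, the basement membrane linker nidogen 2, fell by 2.29 ± 0.36, with limma adjusted p-values (Benjamini-Hochberg) of 0.0157 and 0.00348. These are 2 of 19, against 4.11% of all probe sets. With preparations matched 4 of the 19 rose and 6 fell at day 3, against 13.8% of all probe sets in either direction, and Nid2 alone fell at day 1, against 4.99%. Srpx, a secreted sushi-repeat protein, at 0.54 ± 0.19, and Nid1, the relative of Nid2, at -1.19 ± 0.46, were among those 10. Nid1 and Nid2 are binding partners of the fibulins. The genes with the smallest p at day 1 were Nid2 (-1.5), Ccn2 (2.06), Ccn1 (0.94) and Smoc2 (1.36). The Nid2 call at day 3 held in all 6 fits without 1 array and was lost without all arrays of preparation 1 (0.133) or 2 (0.067). The Ccn2 call was lost without the treated array of preparation 2 (0.063) or the GP array of preparation 1 (0.0774) or 2 (0.0582), and without all arrays of preparation 1 (0.133) or 2 (0.371).

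Of 33 names of receptors and adhesion-site proteins 21 were tested, with a median of -0.10 at both days. Itga3, the integrin alpha 3 subunit, fell by 1.00 ± 0.22 at day 1 and 1.24 ± 0.22 at day 3, with limma adjusted p-values (Benjamini-Hochberg) of 0.0477 and 0.00626. Egfr, the epidermal growth factor receptor, to which repeats of tenascin C can bind, fell by 2.16 ± 0.51 at day 3 (adjusted p = 0.0306). The probe sets of Nid2 and Egfr carry suffixes for shared or similar sequences, so signal from a related transcript cannot be told apart there. No receptor passed upward. Without matching the calls were 1 of 21 at day 1 and 2 of 21 at day 3, against 0.926% and 4.11% of all probe sets. Only 2.03% of all probe sets passed upward at day 3. With preparations matched 2 fell at day 1, Itga3 and the integrin beta 5 subunit gene Itgb5 (-0.61), against 4.99% of all probe sets. At day 3, 2 rose and 3 fell with matching, against 13.8% in either direction. Plaur, the urokinase receptor, at 0.81, and Ddr2, a collagen receptor kinase, at 0.72, were the 2 that rose, and Lrp1, an endocytic receptor of thrombospondins, at -1.49, fell with Itga3 and Egfr. Plaur (0.5) and Itgb7 (0.82) were the other genes among the 4 smallest p-values of the list at day 1. Neither passed in either fit, and the unadjusted limma p of Itgb7 was 0.139. The Itga3 call at day 1 was lost without any 1 of its 6 arrays (adjusted p 0.0589 to 0.187), while that at day 3 held in all 6 fits. The day 3 call was lost without all arrays of preparation 1 (0.17) or 2 (0.205) and in a fit of its 2 groups alone (0.0785). The Egfr call was lost without the treated array of preparation 2 (0.102) or 3 (0.115) or the GP array of preparation 1 (0.0797) or 2 (0.12), without all arrays of preparation 2 (0.471) or 3 (0.0987), and in a fit of its 2 groups alone (0.17).

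**Figure D3:**
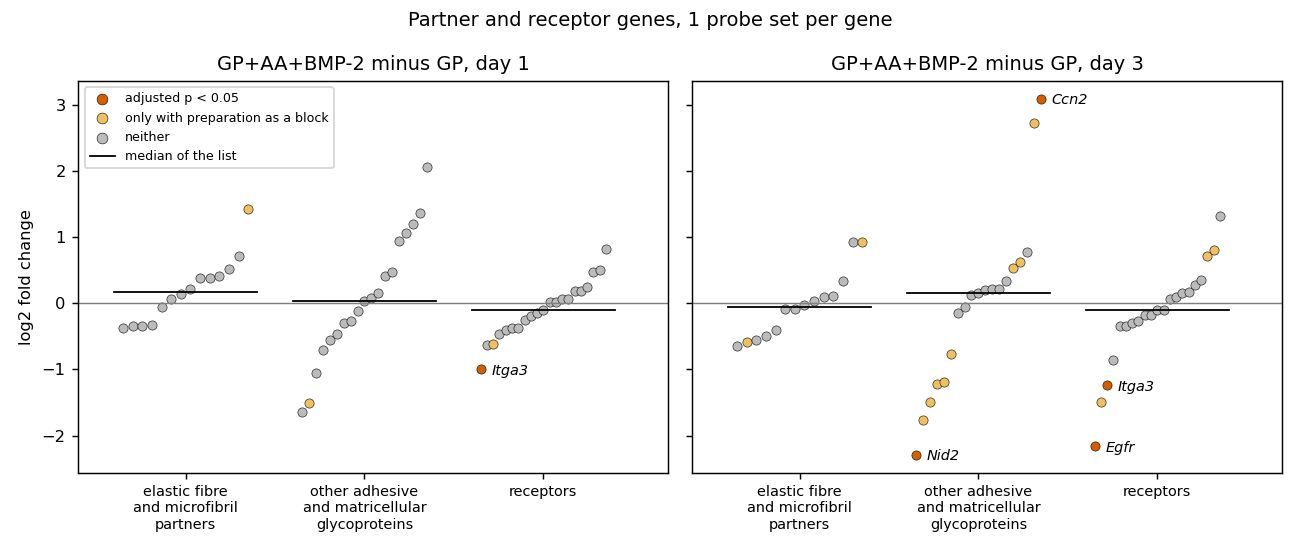
Treated minus GP log2 difference for the tested genes of the 3 partner lists at day 1 and day 3, 1 probe set per gene, in rising order within a list, with a bar for the median of the list and colours for genes that passed without and only with preparations matched. Genes past the threshold are named: Itga3 at day 1 at -1, and Itga3, Egfr, Nid2 and Ccn2 at day 3 at -1.24, -2.16, -2.29 and 3.09.

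The label of the cells was read against markers. Col1a1, Col1a2 and Sparc, the main bone matrix genes of the osteoblast list, read 6727.4 to 11861.5, 6990.8 to 11181.3 and 2156.3 to 3770.6, and 7 of 11 osteoblast markers on the array passed the filter. Ibsp, Pth1r, Phex and Dmp1 did not, at geometric means of 18.43, 13.3, 7.053 and 13.58, though Pth1r read up to 419.3. The summed intensity of the 11 osteoblast markers was 16920 to 23260 in GP and 23260 to 28100 in treated cultures at day 3, beside the Tnc and Fbln2 changes. That sum is mostly Col1a1 and Col1a2, which were at 0.28 ± 0.17 and 0.24 ± 0.16 and did not pass. Of the osteoblast markers tested at day 3, Alpl (4.58 ± 0.50) and Tnfrsf11b (2 ± 0.31) rose and Cdh11 (-1.24 ± 0.17) fell, with limma adjusted p-values (Benjamini-Hochberg) of 0.000406, 0.00319 and 0.00138. Of 10 smooth muscle and myofibroblast markers 7 passed the filter, with Acta2 at 2492.2 to 4130.8 and Myh11 near the floor at 1 to 6.5. Their sum at day 3 was 9949 to 13880 in GP and 11700 to 14380 in treated cultures. These ranges overlapped, and none of the 7 tested markers passed at day 3. The part of either list in the results was not tested. Lists of other cell types were mixed. The filter passed 3 of 10 cartilage markers (Col9a1, Col9a2 and Col9a3), 1 of 7 of fat (Lep, at 73.5 to 296.3), 1 of 9 of endothelium (Eng, at 109.5 to 225.2), 2 of 10 of macrophages (Cd14, at 299.1 to 983.5, and Csf1r) and 1 of 8 of epithelium (Cdh1, at 71 to 192.5). The other markers of these lists on the array had geometric means under the filter. Among them, Acan and Hapln1 read at most 13.7 and 3.4, Pparg 2.4, Cdh5 7.4, Itgam 5.5 and Epcam 9. Others read higher at their brightest, with Col2a1 up to 32.9, Fabp4 up to 56.2, Pecam1 up to 50.6, Mpeg1 up to 51.1 and Cldn4 up to 37. At day 3 the summed intensities in GP and treated cultures were 254.7 to 360.2 and 220.7 to 421.4 for cartilage, 170.7 to 346.6 and 182.2 to 293.5 for fat, and 194.1 to 305.3 and 206.9 to 305.5 for endothelium. For macrophages they were 436.5 to 748.3 and 404.2 to 708.4, and for epithelium 148.9 to 216.6 and 117.3 to 233.7. The groups overlapped for all 5 of these lists.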

How the data were processed

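The values the authors deposited were linear array intensities for 12488 probe sets. Their software is not given in the sources used here. Values under 2.8 (the 10th percentile) were set to 2.8, and log2 was taken of the deposited intensities. The 66 control probe sets and those with a geometric mean under 22.3 (the 40th percentile) were left out of the tests. limma 3.58.1 in R 4.3.3 (lmFit, eBayes with a mean trend) fitted all 15 arrays by group, with 10 residual degrees of freedom. Adjustment was by Benjamini-Hochberg over 7453 probe sets, with calls under 0.05. The standard errors and 95% intervals come from that fit, and the code was tested on simulated data. The brightest probe set stood for a gene.

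Preparation numbers were checked for pairing on deviations from group means. Every same-numbered pair correlated above 0.1 (0.19 to 0.703), and 15 of 15 arrays correlated best with their own number. The numbers were therefore taken to pair the samples, and for the members blocked values are given where they change a call. Members, lists and tests were chosen with earlier results of these data known, the Tnc and Fbln2 changes at day 3 among them. Named are every member, the 3 genes with the highest r to each member that passed at day 1 or 3, and, per list and day, the 4 genes with the smallest p. Ddr2 and the marker genes given with values were chosen after their values were seen. Gene positions and windows come from RefSeq, GRCm38.p6. Alternatives covered the filter, floor, normalization, mean trend, arrays fitted, block, each array or preparation left out, and other probe sets.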

Additional observations from a re-analysis of the deposited data

How the results depend on the processing

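Of 1228 values of the 7 genes and other named genes under an alternative, 1050 kept their direction and side of the threshold, 79 lost a call, 28 gained one and 71 turned direction. The replicate block gave 3 calls among the 7 genes at day 1 (Tnc, Fbln2 and Thbs2) in place of 0 and added Thbs2 at day 3. It changed no other call of the 7. A fit of only the groups compared gave 0 calls in place of 1 for treated day 3 against day 1. With 1 array or 1 preparation left out the count ran from 0 to 1 at day 1, from 0 to 2 at day 3 and from 0 to 2 for treated day 3 against day 1. Median scaling called 48 and 166 of all probe sets at days 1 and 3 in place of 69 and 306, 2 in place of 18 for GP day 1 against medium, and 25 in place of 53 for GP day 3 against day 1. For treated day 3 against day 1 it called 4 higher and 4 lower in place of 7 higher and 4 lower.

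The largest turned values came from dim probe sets, and none of the turned values had a call. On its brighter probe set Tnc turned to -0.41 for GP day 1 against medium without the GP day 1 array of preparation 3. Eln gave 0.02 at day 1 and -0.04 for treated day 3 against day 1 with a floor at the 50th percentile, an alternative added after the data were seen. Postn gave -0.06 for the difference of the effects and 0.03 for GP day 1 against medium with quantile normalization. Other probe sets of Fbln1 gave 0.08 and 0.19 at day 1, 0.9 at day 3, 1.22 for the difference of the effects, -0.21 for GP day 1 against medium, 0.53 for GP day 3 against day 1, and 0.13 and 0.91 for treated day 3 against day 1. The other Tnc probe set gave -0.05 for GP day 1 against medium, and the other Eln probe set 1.07 there, -0.16 for GP day 3 against day 1 and -0.76 for treated day 3 against day 1. The cause was not tested.

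With 1 array or preparation left out, values that turned ranged as follows. At day 1 these were Eln (-0.61 to 0.42), Fbln1 (-0.23 to 0.03), Fn1 (-0.3 to 0.09) and Postn (-0.01 to 0.56). For the difference of the effects they were Fbln1 (-0.73 to 0.04), Fn1 (-0.37 to 0.03), Postn (-0.15 to 0.41) and Thbs2 (-0.29 to 0.36). For GP day 1 against medium they were Eln (-0.34 to 0.45), Fbln1 (-0.05 to 0.15), Fbln2 (-0.13 to 0.01), Postn (-0.28 to 0.28), Thbs2 (-0.39 to 0.18) and Tnc (-0.41 to 0.3). For GP day 3 against day 1 they were Fbln1 (-0.32 to 0.2), Fn1 (-0.11 to 0.13), Postn (-0.01 to 0.55) and Tnc (-0.15 to 0.54). For treated day 3 against day 1 they were Eln (-0.36 to 0.43) and Fn1 (-0.36 to 0.04). Signal over background limits Eln most. Under the 50th percentile floor its day 3 difference was -0.53 (adjusted p = 0.051), and a floor at the 60th percentile, 79 units, lies above all but 1 of its values, so the fit there says nothing about Eln. Without the filter the calls of Itga3 and Cd34 at day 1 (0.0641 for each) and of Egfr (0.065) and Pkdcc (0.0695) at day 3 were lost. With median scaling those of Itga3 at day 1 (0.0701), Pkdcc (0.061) and Tmem179b (0.131) were lost. Those of Ccn2, Egfr, Ackr3 and, at day 1, Itga3 were lost under the 60th percentile floor, and those of Ccn2 and Egfr under the 50th. Tmem179b was lost in a fit of its 2 groups alone (0.144). The day 1 call of Cd34 was also lost under the 50th percentile floor (0.0593), without the mean trend (0.0571) and in a fit of its 2 groups alone (0.163).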

Other observations

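The probe set that carried both Pald1 and Thbs1 (160469_at) cannot be assigned to either gene. It read 384.7, 612 and 1437.1 in medium, 340.8, 312.3 and 1072.4 in GP and 388.3, 313.5 and 736.2 in treated cultures at day 1, and 519.9, 510.4 and 916.5 in GP and 506.3, 404.2 and 540.9 in treated cultures at day 3. Preparation 3 was highest in all 5 groups. The treated minus GP differences were -0.12 ± 0.51 at day 1 and -0.38 ± 0.51 at day 3 and did not pass (limma with Benjamini-Hochberg, adjusted p = 0.989 and 0.796).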
